A study of Mus musculus with 6 samples.

Results

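The sirtuins are 7 genes, Sirt1 to Sirt7, and all 7 were found by symbol among the 14495 genes of a count table of mouse ventricles. Each also passed the filter on low counts, which left 14301 genes to test. The series compared postnatal day 14 (P14) with postnatal day 1 (P1) in male C57BL/6 mice, by sequencing messenger RNA selected with oligo(dT) beads. There were 3 libraries at P14 and 3 at P1, and every library was made from a separate pool of 3 hearts. The labels call the tissue cardiac left ventricle, whereas their collection protocol keeps both ventricles with the septum and removes the atria. Total counts were 15725993, 9104230 and 9295536 in P14 replicates 1 to 3, and 17353933, 13406479 and 5916557 in P1 replicates 1 to 3.

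Sirtuins are enzymes that remove acetyl and other acyl groups from lysines of proteins and split a molecule of NAD+ each time, so their activity is tied to the supply of this coenzyme. Sirt1, Sirt6 and Sirt7 are mainly nuclear and Sirt2 is mainly cytosolic. Sirt3, Sirt4 and Sirt5 reside in mitochondria, where Sirt3 is the main deacetylase, Sirt4 acts on glutamate dehydrogenase and other enzymes, and Sirt5 removes succinyl, malonyl and glutaryl groups. In the heart they are studied because the muscle changes after birth from a fuel supply rich in lactate and glucose to fatty acids, whose oxidation runs through enzymes that carry such groups.

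At P14 the transcripts of Sirt4 and Sirt5 rose, by 1.99-fold and 1.65-fold, and that of Sirt1 fell, to 0.567 of its P1 level. Sirt2, Sirt3, Sirt6 and Sirt7 did not pass the test. Rose and fell are used of genes past a Benjamini-Hochberg threshold of 0.05 in the quasi-likelihood test of edgeR, P14 over P1, with libraries scaled by the trimmed mean of M-values (TMM). The 3 called members are 42.9% of the family, against 43.8% of all tested genes, so sirtuins were called about as often as genes in general. By direction 2 of the 7 rose, where 21.8% of all genes did, and 1 fell, where 22.0% did. The 3 P14 values and the 3 P1 values did not overlap in 2 of the 7 members (28.6%), Sirt4 and Sirt5, against 54.8% of tested genes. The calls of Sirt1 and Sirt5 end when single libraries are left out, and those of Sirt4 and Sirt5 end when libraries are scaled by their totals alone, as given with each gene.

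The windows before the RefSeq starts (GRCm38.p6) of the called genes, and of Sirt3, whose exons overlap those of a divergent neighbour, are shown so that the called members can be set beside each other. Each holds 250 bases before and 50 after the start, 5′ to 3′ on the gene's strand. Capitals mark matches on either strand to 1 of 7 motifs chosen with the sequences in view. These were the E-box (CACGTG), the ETS motif (CCGGAAG), the GC box (GGGCGG), the CCAAT box (CCAAT), the NRF1 motif, the motif of oestrogen-related receptors (AAGGTCA) and the TATA box (TATAAA).
Sirt4: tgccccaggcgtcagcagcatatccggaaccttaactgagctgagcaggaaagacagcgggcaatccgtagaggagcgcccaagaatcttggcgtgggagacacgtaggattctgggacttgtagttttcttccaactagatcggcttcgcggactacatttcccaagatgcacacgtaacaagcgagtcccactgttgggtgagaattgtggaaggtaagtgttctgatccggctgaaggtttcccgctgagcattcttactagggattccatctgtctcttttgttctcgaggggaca
Sirt5: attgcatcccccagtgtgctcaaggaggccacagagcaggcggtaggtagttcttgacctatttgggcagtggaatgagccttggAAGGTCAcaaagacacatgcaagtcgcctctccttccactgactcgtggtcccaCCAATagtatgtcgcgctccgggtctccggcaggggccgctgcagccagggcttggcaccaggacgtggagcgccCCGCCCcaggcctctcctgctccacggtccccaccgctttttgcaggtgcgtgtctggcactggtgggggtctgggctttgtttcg
Sirt1: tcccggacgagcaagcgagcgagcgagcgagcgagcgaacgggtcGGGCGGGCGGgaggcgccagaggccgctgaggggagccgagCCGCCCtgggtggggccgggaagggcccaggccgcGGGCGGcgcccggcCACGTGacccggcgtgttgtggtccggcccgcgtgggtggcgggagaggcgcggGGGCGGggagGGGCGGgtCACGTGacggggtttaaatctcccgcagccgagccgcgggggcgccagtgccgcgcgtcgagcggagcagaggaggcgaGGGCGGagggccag
Sirt3: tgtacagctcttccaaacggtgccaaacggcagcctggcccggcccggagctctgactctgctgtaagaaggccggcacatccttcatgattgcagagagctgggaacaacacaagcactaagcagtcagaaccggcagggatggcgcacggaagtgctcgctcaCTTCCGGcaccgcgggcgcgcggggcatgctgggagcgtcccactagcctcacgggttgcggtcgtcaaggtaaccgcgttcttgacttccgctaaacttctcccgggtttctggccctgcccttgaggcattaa

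The Sirt1 window (chr10:63338986-63339285, minus strand) was the richest in CpG of the family's 9 windows, with 47 CpG and 79% G and C. Over 32851 windows of the same length the median was 7 CpG, and 98.8% held 47 or fewer. It held the E-box at 2 places and the GC box at 7, some overlapping. An E-box was present in 7.15% of all windows and a GC box in 35.7%. The Sirt4 window (chr5:115484248-115484547, minus) had 15 CpG and no match to any of the searched letters. The Sirt5 window (chr13:43365285-43365584, plus) also had 15 CpG, with 1 match each to the motif of oestrogen-related receptors, the CCAAT box and the GC box, which 4.72%, 37.4% and 35.7% of all windows hold. The Sirt3 window shown (chr7:140882260-140882559, minus) had 23 CpG and 1 ETS match, which 8.86% of windows hold. This window lies wholly within the annotated neighbour Psmd13 (140881968 to 140898643, other strand). A second RefSeq start of Sirt3 (140881869) lies outside Psmd13. Its window, not shown, had 24 CpG, 4 GC boxes, 1 CCAAT box and no ETS match. The NRF1 motif was in 0.971% of windows and the TATA box in 13.6%, and none of the 4 windows shown holds either. These matches are a description of letters only.

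Sirt4, a mitochondrial ADP-ribosyltransferase and lipoamidase (ENSMUSG00000029524; chromosome 5, 115478010 to 115484725), had 14.0, 10.5 and 10.4 CPM (read counts per 1000000, TMM-scaled) at P14, against 5.37, 5.36 and 7.24 CPM at P1. Every P14 library lay above every P1 library. The means were 11.6 ± 2.05 CPM at P14 and 5.99 ± 1.08 CPM at P1 (SD, n = 3 each), which is 0.99 ± 0.26 on the log2 scale (SE; edgeR adjusted p = 0.00644). The call held without any single library, with log2 fold changes of 0.83 to 1.14. With totals alone the log2 fold change was 0.54 and the edgeR adjusted p = 0.144. That scaling moved the median of all genes to −0.47, compared with −0.01 under TMM, and Sirt4 lay 1.01 above the median of all genes with totals alone and 1.0 above it with TMM.

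Sirt5, the mitochondrial desuccinylase (ENSMUSG00000054021; chromosome 13, 43365496 to 43395203), had 41.5, 29.3 and 24.3 CPM at P14, against 23.7, 19.1 and 14.3 CPM at P1. The groups did not overlap, but P14 replicate 3 and P1 replicate 1 were close. The means were 31.7 ± 8.84 CPM at P14 and 19.1 ± 4.71 CPM at P1, a difference of 0.73 ± 0.25 on the log2 scale (edgeR adjusted p = 0.0299). The edgeR adjusted p became 0.156 without P14 replicate 1, 0.0606 without P14 replicate 2 and 0.111 without P1 replicate 3. With totals alone the log2 fold change was 0.25 (edgeR adjusted p = 0.458), which is 0.73 above the median of all genes, against 0.74 with TMM.

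Sirt3, the main mitochondrial deacetylase (ENSMUSG00000025486; chromosome 7, 140863666 to 140882309), had 70.0, 58.6 and 59.9 CPM at P14, against 52.3, 34.0 and 59.1 CPM at P1. The ages overlapped, because P1 replicate 3 matched the lower P14 libraries. The log2 fold change was 0.38 ± 0.22, with a 95% interval of −0.091 to 0.85 (edgeR adjusted p = 0.179). After each library was corrected for the GC content and length of transcripts it was 0.62 and passed (edgeR adjusted p = 0.0374), in a fit that called 51.7% of all genes, and with totals alone it was −0.053. The annotated 5′ ends of Sirt3 and Psmd13, a proteasome subunit, lie 341 bases apart on opposite strands, and their exons overlap by 342 bases. Psmd13 had 150, 145 and 124 CPM at P14 and 120, 78.1 and 104 CPM at P1, and its change of 0.47 ± 0.21 on the log2 scale did not pass (edgeR adjusted p = 0.0776). Exons of Sirt3 also share 418 bases with Ric8 (Ric8a), a chaperone of G proteins on the other strand, whose log2 fold change was 0.031.

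Sirt1, the nuclear deacetylase that acts on histones and transcription factors (ENSMUSG00000020063; chromosome 10, 63319005 to 63381704), was the member that fell. It had 4.08, 5.97 and 8.89 CPM at P14, against 9.53, 14.6 and 8.42 CPM at P1. The highest P14 library, replicate 3, lay above the lowest P1 library, also replicate 3, so the ages overlapped. The means were 6.31 ± 2.42 CPM at P14 and 10.9 ± 3.31 CPM at P1, and the log2 fold change was −0.82 ± 0.32 (edgeR adjusted p = 0.0492), just under the threshold. The edgeR adjusted p was 0.144 without P1 replicate 2, 0.0559 without P1 replicate 3, 0.198 without P14 replicate 1 and 0.135 without P14 replicate 2. It was 0.051 with DESeq2 size factors, 0.0542 with a filter of over 5 CPM in 3 libraries, and 0.078 after the GC and length correction, where the log2 fold change was −0.54. With that correction and the replicate block together Sirt1 was called (−0.58, edgeR adjusted p = 0.0442). With totals alone the log2 fold change was −1.31, which is −0.84 relative to the median of all genes, against −0.81 with TMM. Sirt1 counts were low, with 45 to 69 reads per library at P14 and 50 to 251 at P1.

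Sirt2, the mainly cytosolic member that deacetylates tubulin (ENSMUSG00000015149; chromosome 7, 28766735 to 28788661), had 115, 82.7 and 98.0 CPM at P14, against 98.3, 58.1 and 79.8 CPM at P1. Its log2 fold change was 0.33 ± 0.22 (95% interval −0.15 to 0.80; edgeR adjusted p = 0.255), and −0.12 with totals alone. Sirt7, a nucleolar member linked to ribosomal RNA synthesis (ENSMUSG00000025138; chromosome 11, 120618372 to 120625240), had 17.7, 17.7 and 14.0 CPM at P14, against 14.5, 9.09 and 11.3 CPM at P1. The ages overlapped in both genes, in Sirt7 through P14 replicate 3 and P1 replicate 1 alone. The log2 fold change of Sirt7 was 0.50 ± 0.24 (95% interval −0.017 to 1.02; edgeR adjusted p = 0.109). Mafg, a small Maf transcription factor, overlaps Sirt7 by 124 exon bases on the same strand and rose by 1.61 ± 0.21 on the log2 scale (edgeR adjusted p = 3.28e-05), so reads of that stretch cannot be assigned to either gene. Of the other neighbours, Nfkbib, Dnajc12 and Ankrd24 had log2 fold changes of 0.57, −0.66 and −0.21 and did not pass. Exons of Nfkbib overlap Sirt2 by 42 bases on the other strand. Dnajc12 starts 739 bases from the outermost annotated 5′ end of Sirt1 (63381704), and Ankrd24 starts 743 bases from that of Sirt6. The Sirt1 window shown above belongs to another start (63339035), which lies inside the annotated gene and far from Dnajc12. Gm16145, which shares 65 exon bases with Sirt1 on the other strand, and Mir6936, which shares 54 with Sirt7 on the same strand, were not tested.

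Sirt6, a chromatin-bound member that acts in DNA repair and glucose metabolism (ENSMUSG00000034748; chromosome 10, 81621785 to 81627797), had 3.52, 5.84 and 4.51 CPM at P14, against 5.27, 2.62 and 5.05 CPM at P1. The values of the ages were intermixed. The log2 fold change was 0.10 ± 0.34, with a 95% interval of −0.63 to 0.82 (edgeR adjusted p = 0.839), and its sign was negative with totals alone (−0.36), after the GC and length correction (−0.34) and without P1 replicate 2 (−0.19) or P14 replicate 2 (−0.10). Sirt6 had 30 to 114 reads per library. The sources used here do not say whether reads were assigned by strand. Of the 36-base windows of sirtuin transcripts, 84.4% (Sirt5) and 88.3% (Sirt3) to 100% (Sirt4 and Sirt6) were found in no other gene's annotated transcripts.

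**Figure D1:**
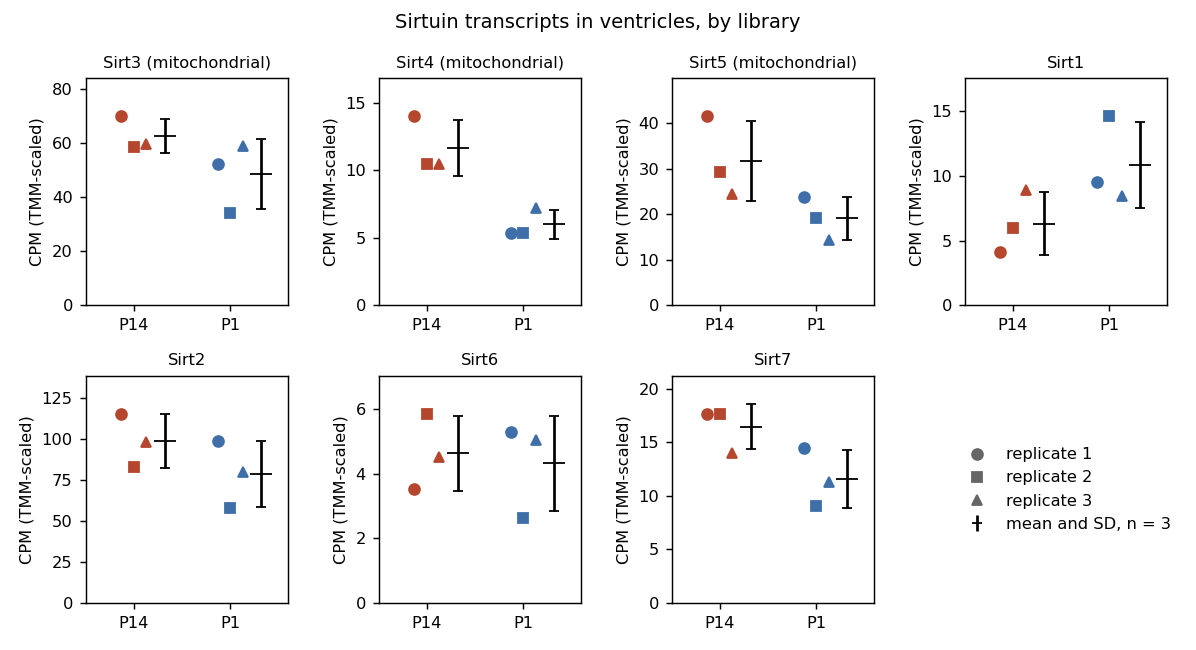
TMM-scaled CPM of each sirtuin (vertical axes, starting at 0) in the 3 P14 and 3 P1 libraries, with replicate numbers as symbols and mean ± SD beside them. Sirt4 and Sirt5 are higher in every P14 library than in any P1 library, Sirt1 is lower on average with 1 overlap, and the other members overlap.

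**Figure D2:**
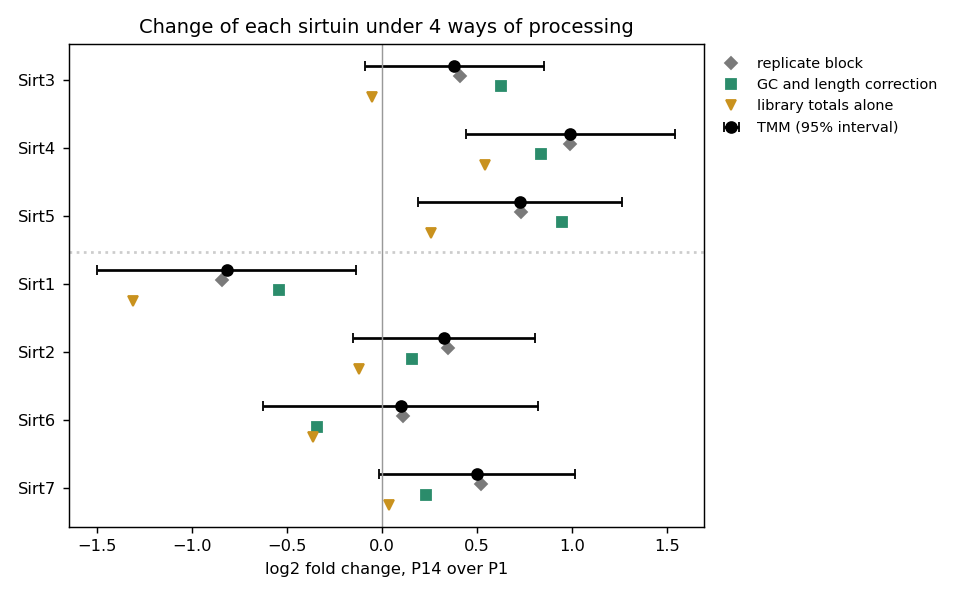
Log2 fold change, P14 over P1 (horizontal axis), of each sirtuin with TMM and its 95% interval (black circles), with the replicate number as a block (diamonds), after correction for GC content and length (squares) and with library totals alone (triangles). Totals alone move all 7 members down together, and 0.99 for Sirt4 and −0.82 for Sirt1 are the extremes with TMM.

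The difference and share below, of Sirt3 to Sirt5 against the other members, need no scaling between libraries, since they are made within each. They were not recomputed after the GC and length correction, which moved Sirt3 to 0.62 and Sirt6 to −0.34. The log2 fold changes do depend on scaling. With TMM those of Sirt3 to Sirt5 ran from 0.38 to 0.99 with a median of 0.73. Those of the other 4 ran from −0.82 to 0.50 with a median of 0.21. All tested genes had a median of −0.01. The mean log2 CPM of Sirt3 to Sirt5 minus that of the other 4 was 1.4, 0.80 and 0.69 in P14 replicates 1 to 3, and 0.20, 0.35 and 0.39 in P1 replicates 1 to 3. With all members, every P14 library was above every P1 library, by 0.65 on average. That separation rested on Sirt1. Without Sirt1 the mean difference between the ages was 0.37, but the libraries overlapped, with P1 replicate 2 above P14 replicate 2. With Sirt1 kept and P14 replicate 1 left out, the mean difference was 0.44. The members were chosen with results known, and no p is given for a score over them.

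As a share of the family's reads per kilobase of merged exons, Sirt3 to Sirt5 took 46.3%, 45.1% and 41.9% in P14 replicates 1 to 3, against 36.4%, 39.4% and 41.6% in P1 replicates 1 to 3. The 2 sets of values did not overlap, although P14 replicate 3 and P1 replicate 3 nearly met. The means were 44.4 ± 2.26% at P14 and 39.1 ± 2.61% at P1. Sirt4 took 4.74% to 5.27% of sirtuin reads at P14 and 2.57% to 3.91% at P1. Sirt3 took 26.3% to 27.8% at P14 and 23.8% to 31.9% at P1, so its share lay inside the P1 range. There were 3.43, 1.76 and 1.17 Sirt4 reads per Sirt1 read at P14, against 0.563, 0.367 and 0.86 at P1, and 10.2, 4.91 and 2.74 Sirt5 reads per Sirt1 read at P14, against 2.49, 1.31 and 1.7 at P1. Both ratios were higher in every P14 library, and P14 replicate 1, which had the least Sirt1, was highest in both. Both set a member that rose over the member that fell. Sirt3 reads per Sirt2 read overlapped (0.608 to 0.708 at P14, 0.532 to 0.741 at P1). So did Sirt3 per Sirt1 (6.74 to 17.2, 2.32 to 7.02) and Sirt5 per Sirt3 (0.406 to 0.593, 0.242 to 0.563). Sirt4 per Sirt3 (0.174 to 0.2, 0.103 to 0.158) and Sirt2 per Sirt1 (11.0 to 28.2, 3.97 to 10.3) did not.

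**Figure D3:**
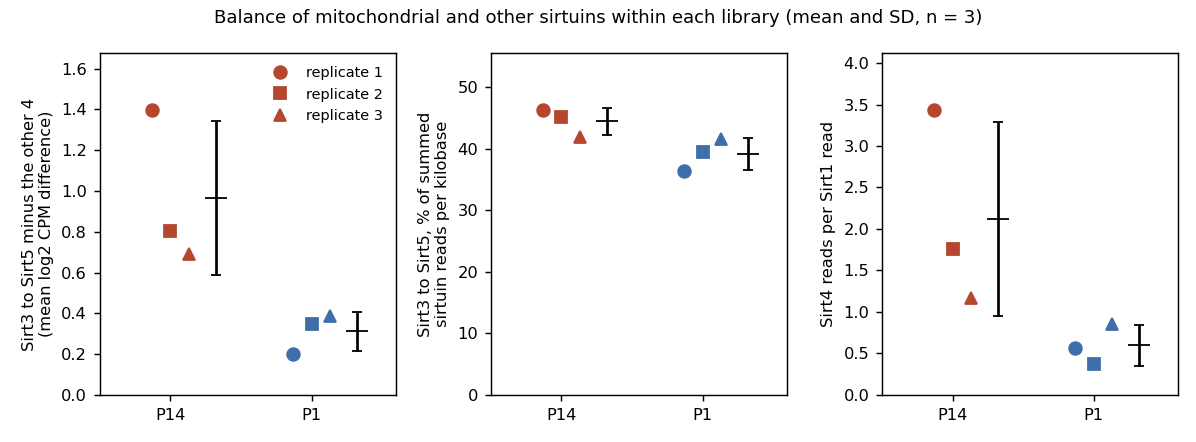
Balance within each library: mean log2 CPM of Sirt3 to Sirt5 minus that of the other 4 (left), their percentage of summed sirtuin reads per kilobase (middle) and Sirt4 reads per Sirt1 read (right), with mean ± SD (n = 3 per age). In all 3 panels the P14 values lie above the P1 values, with averages of 44.4% at P14 and 39.1% at P1 in the middle panel. In the left panel this separation does not hold when Sirt1 is left out. The right panel pairs the member with the largest rise and the only member that fell in these same libraries. It is therefore no separate measure of the 2 groups of members.

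Compared per length, Sirt2 was the most abundant sirtuin transcript at both ages and Sirt1 or Sirt6 the least. In CPM per kilobase of merged exons, the P14 levels were 19.6 ± 3.22 for Sirt2, 10.5 ± 1.05 for Sirt3, 5.21 ± 1.45 for Sirt5, 4.85 ± 0.854 for Sirt4, 3.2 ± 0.407 for Sirt7, 1.66 ± 0.419 for Sirt6 and 1.18 ± 0.454 for Sirt1. The P1 levels on the same scale were 15.6 ± 4.0 for Sirt2, 8.11 ± 2.18 for Sirt3, 3.13 ± 0.773 for Sirt5, 2.5 ± 0.452 for Sirt4, 2.26 ± 0.526 for Sirt7, 2.04 ± 0.622 for Sirt1 and 1.55 ± 0.528 for Sirt6. At P14 the library values of Sirt5 and Sirt4 overlapped, as did those of Sirt6 and Sirt1, and other neighbours in the order did not. At P1 the order below Sirt3 rests on overlapping neighbours. Per kilobase of the longest transcript, Sirt7 (3.55) stood above Sirt4 (3.34) at P1, and the order was otherwise the same.

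Most genes of NAD+ metabolism did not pass. Of 16 tested genes of NAD+ synthesis, salvage and nicotinamide clearance 3 rose, 2 fell and 11 did not pass, so 31.2% were called, against 43.8% of all tested genes, and the median log2 fold change was −0.29, against −0.01. Nampt, the rate-limiting enzyme of salvage from nicotinamide, had 63.1, 67.2 and 61.3 CPM at P14, against 29.1, 40.6 and 27.8 CPM at P1. Nmnat1, the nuclear enzyme that completes NAD+, had 28.2, 26.8 and 27.7 CPM at P14, against 11.6, 10.8 and 12.8 CPM at P1. Both were higher in every P14 library, with log2 fold changes of 0.97 ± 0.20 and 1.24 ± 0.21 (edgeR adjusted p = 0.0016 and 0.000282). Naprt1, which starts synthesis from nicotinic acid, rose with 1.51 ± 0.30 on that scale. Nadkd1 (Nadk2), the mitochondrial NAD+ kinase, and Afmid, of the route from tryptophan, fell with −0.86 ± 0.22 and −0.89 ± 0.21. The mitochondrial Nmnat3 had 14.9 ± 1.6 CPM at P14 and 16.5 ± 1.9 CPM at P1, and the muscle nicotinamide riboside kinase Nmrk2 had 30.3 ± 1.97 CPM at P14 and 38.0 ± 9.36 CPM at P1. Neither passed.

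Among other enzymes that use NAD+, ADP-ribosyltransferases both rose and fell. Of 20 tested genes 5 rose, 2 fell and 13 did not pass, so 35% were called, against 43.8% of all tested genes, with a median log2 fold change of 0.074. Art1, a membrane-bound mono-ADP-ribosyltransferase of muscle, had 148, 145 and 127 CPM at P14, against 3.89, 2.86 and 2.69 CPM at P1, a log2 fold change of 5.43 ± 0.24. Parp3, a nuclear mono-ADP-ribosyltransferase of DNA repair, had 28.8, 32.5 and 31.8 CPM at P14, against 4.39, 4.84 and 3.03 CPM at P1, a log2 fold change of 2.88 ± 0.24. Art5, Parp14 and Art3 also rose, with log2 fold changes of 2.57, 1.45 and 1.04. Parp1, the main poly-ADP-ribose polymerase, had 56.1, 43.7 and 49.1 CPM at P14, against 82.5, 80.9 and 69.9 CPM at P1, and fell with −0.65 ± 0.19 (edgeR adjusted p = 0.0127), as did Tnks2 with −0.71 ± 0.22. With the replicate number as a block 4 of these genes fell, in a fit that called 48.9% of all genes. Neither fall was called without P14 replicate 2, and the list held 1 fall without P14 replicate 1 or P14 replicate 3.

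Of 14 tested genes reported to regulate sirtuins or their transcripts 7 rose, 3 fell and 4 did not pass (71.4% called, against 43.8% of all tested genes; median log2 fold change 0.39). Hic1, a transcriptional repressor, had 8.8, 7.3 and 8.37 CPM at P14, against 3.1, 3.15 and 2.19 CPM at P1, a log2 fold change of 1.5 ± 0.28. E2f1, a transcription factor, fell with −2.62 ± 0.40, and Elavl1, an RNA-binding protein, fell with −0.62 ± 0.19. Esrra, the oestrogen-related receptor through which Ppargc1a drives Sirt3, had 66.6, 84.2 and 99.4 CPM at P14, against 40.9, 10.3 and 34.9 CPM at P1, and rose with 1.54 ± 0.46 (edgeR adjusted p = 0.0266). Ppargc1a had 54.4, 100 and 126 CPM at P14, against 50.01, 60.9 and 44.5 CPM at P1, and rose with 0.85 ± 0.27 (edgeR adjusted p = 0.0212), with P14 replicate 1 inside the P1 range. Bloc1s1, a part of the mitochondrial acetylation machinery, Ppara, Foxo1 and Foxo3 rose as well, with log2 fold changes of 1.47, 1.34, 1.12 and 0.58, and Prkaa2 fell with −0.86. Ccar2, an inhibitor of Sirt1 listed in the table as 2610301G19Rik, had 24.7 ± 3.24 CPM at P14 and 32.7 ± 4.33 CPM at P1 and did not pass. Without P14 replicate 3, 4 of the list rose. Whether any of these changes bears on a sirtuin transcript was not tested.

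Of 26 tested mitochondrial proteins reported as substrates of Sirt3, Sirt4 or Sirt5, 17 rose, 1 fell and 8 did not pass (69.2% called, against 43.8% of all tested genes; median log2 fold change 0.64). The rises were led by Acss1, the mitochondrial acetyl-CoA synthetase, with a log2 fold change of 2.51 ± 0.20, and by Cpt2, Acadvl, Mlycd and Hadha, of fatty acid breakdown and its control, with 2.33, 2.20, 1.88 and 1.57. Sod2, the mitochondrial superoxide dismutase, had 655, 549 and 493 CPM at P14, against 337, 392 and 337 CPM at P1, and rose with 0.67 ± 0.20. Glud1, glutamate dehydrogenase, the classical Sirt4 substrate, fell with −0.54 ± 0.20 (edgeR adjusted p = 0.0378). That call ended without P14 replicate 2, P14 replicate 3, P1 replicate 1 or P1 replicate 3 and after the GC and length correction. Idh2, a Sirt3 substrate, had 2035, 1773 and 1693 CPM at P14, against 2312, 1179 and 2188 CPM at P1, and did not pass (log2 fold change −0.046 ± 0.25). The ages overlapped in Idh2 because P1 replicate 2 lay far below the other P1 libraries.

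Of 39 tested nuclear and cytosolic partners and substrates of the other sirtuins 13 rose, 7 fell and 19 did not pass (51.3% called, against 43.8% of all tested genes; median log2 fold change 0.047). The liver X receptor Nr1h3 rose with 2.21 ± 0.31, and Ppara, Crebbp, Ppard and Stk11 rose with 1.34, 1.31, 1.22 and 1.2. Cdc20, an activator of the anaphase-promoting complex, fell with −2.77 ± 0.58, the histone methyltransferases Suv39h1 and Ezh2 with −1.71 and −1.53, and Akt1 and Hif1a with −1.47 and −1.47. Without P14 replicate 3, 8 of the list rose. With totals alone, where 11.3% of all genes rose and 39.1% fell, there were 6 rises and 13 falls in these partners, 6 rises in the mitochondrial substrates, and 8 falls each in the NAD+ synthesis genes and the other NAD+ users. Members of these lists and the cell type markers were written from general knowledge, and some stand in more than 1 list.

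**Figure D4:**
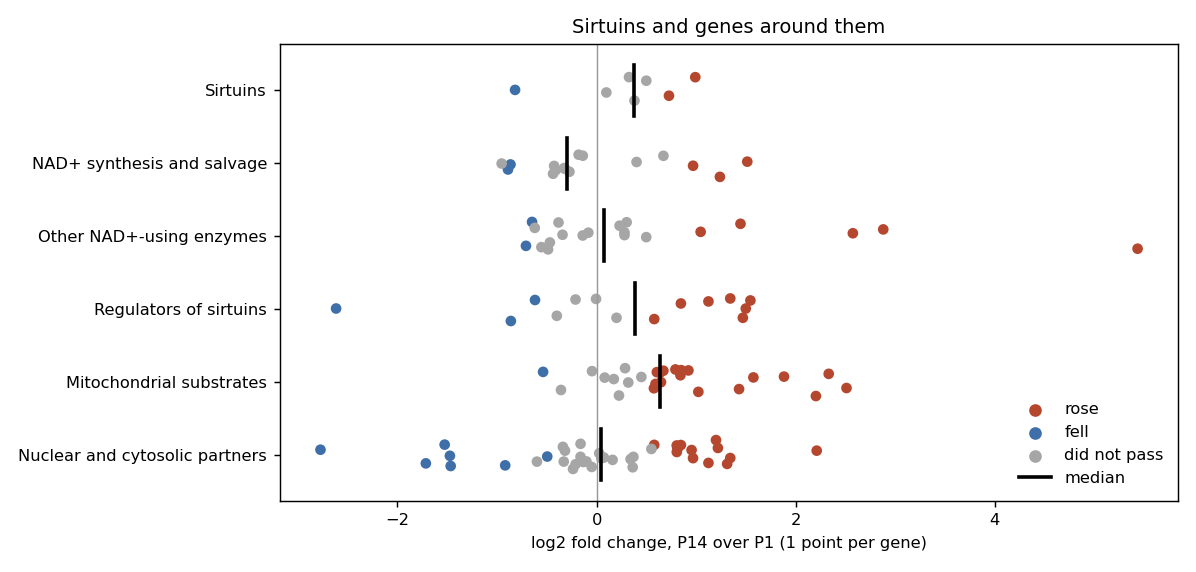
Log2 fold change, P14 over P1 (horizontal axis), of each tested gene, 1 point per gene, in the sirtuin family and 5 lists of related genes, coloured by call, with the median of each as a black bar. The median of the mitochondrial substrates is 0.64 and that of the NAD+ synthesis genes −0.29, and Art1 is the point at 5.43.

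The genes most like each called sirtuin across the 6 libraries were found by the root mean square difference of log2 CPM centred per gene, among genes of at least 10 CPM on average. For Sirt4 these were the Notch-pathway repressor Heyl, the septin Sept4 and the antiviral adaptor Mavs, at differences of 0.0626, 0.0678 and 0.0731. For Sirt5 they were 1110001A16Rik, the antiproliferative Btg2 and the mitochondrial ribosomal protein Mrpl41, at 0.108, 0.118 and 0.128. For Sirt1 they were the Golgi protein Golim4, the RNA helicase Ddx3x and the imprinted Peg3, at 0.0887, 0.0933 and 0.112. Genes chosen for likeness share the direction of the sirtuin they were matched to.

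The tissue's cell type markers moved over the same interval. In bulk tissue fewer cells of a type and less RNA per cell cannot be told apart, and the part of these markers in the sirtuin results was not tested. Of 10 cardiomyocyte markers 7 rose, with a summed level of 111902 to 129222 CPM at P14 and 65281 to 68041 CPM at P1. Of 9 macrophage markers 7 rose (276 to 313 CPM at P14, 79.2 to 91.3 CPM at P1), and of 7 red cell genes 6 rose (2418 to 3246 CPM at P14, 428 to 887 CPM at P1). All 10 markers of proliferating cells fell (41.2 to 69.7 CPM at P14, 549 to 563 CPM at P1), as did all 5 tested granulocyte markers (6.05 to 8.45 CPM at P14, 45.8 to 59.6 CPM at P1). Of 9 endothelial markers 4 rose, of 9 fibroblast markers 1 rose and 1 fell, of 8 smooth muscle and pericyte markers 5 rose and 2 fell, and of 4 atrial and 4 epicardial markers 2 of each fell. Ltf of the granulocytes and Msln of the epicardium were at 0 in P14 replicate 2, and no other tested marker was at 0 in any library. The share of all tested genes called, against which each sirtuin call is read, was 50.4% with totals alone, 43.7% with DESeq2 size factors, 44.3% with upper quartiles, 43.4% with no filter, 46.1% with over 5 CPM, 43.0% by DESeq2, 43.3% by voom, 53.7% with block and GC correction and 28.9% at an adjusted p under 0.01. It was 39.0%, 32.1% and 34.4% without P14 replicates 1 to 3 and 40.8%, 47.2% and 36.6% without P1 replicates 1 to 3.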

How the data were processed

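Poly(A)-selected RNA of mouse ventricles, pooled from 3 hearts per library, was sequenced on an Illumina Genome Analyzer IIx, per the labels' protocols. The authors deposited whole-number read counts per gene, without visible normalization. Per the submitters' processing notes, the build was GRCm38 (mm10) and the tools named were bedtools and edgeR 3.2.4. The sources used here name no aligner, counter, strand setting or annotation. The smallest row total was 60, so rarer transcripts are not analysed here. Columns were matched to samples by age and replicate number, and all were used.

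In R 4.3.3, filterByExpr (minimum count 10) left 14301 genes. P14 was tested against P1 with edgeR 4.0.16 (TMM, robust quasi-likelihood F-test, two-sided, age only) and Benjamini-Hochberg adjustment over all tested genes. Standard errors are the coefficient over the square root of F, and 95% intervals use the moderated degrees of freedom. A check on simulated data changed few genes, balanced in direction and without pairing. It does not test data with as many calls as these. CPM are TMM-scaled. Gene models came from GENCODE M21 (98.8% of identifiers found) and promoters from RefSeq (GRCm38.p6), which held 9 windows for the 7 sirtuins. Counting error is largest in P1 replicate 3, the shallowest library, for every sirtuin except Sirt1. Sirt1 had its fewest reads in P14 replicate 2 (45, against 50 in P1 replicate 3).

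Alternatives were other scalings and filters, DESeq2 1.42.0, voom (limma 3.58.1), a replicate block, a GC and length spline (4 degrees of freedom) and leaving out each library. The labels number replicates 1 to 3 at both ages. Deviations from the age means correlated at 0.295, 0.112 and 0.103 for the 3 same-numbered pairs and −0.214 to 0.09 for the remaining pairs. These meet a rule that needs over 0.1 in every pair, although the labels do not say what a number shares. The main fit used age only, so its calls, standard errors and adjusted p ignore any pairing. With the replicate block the edgeR adjusted p was 0.0101 for Sirt1, 0.00157 for Sirt4 and 0.00416 for Sirt5. That fit called 48.9% of all genes, and the other sirtuins did not pass in it. The members and lists were chosen with earlier results of these data known. Named list members are the called genes with the largest changes, at most 5 in each direction, plus 10 named whatever their result, and the sirtuins' neighbours in the genome. Foxo3, a regulator that rose, is named in addition.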

Additional observations from a re-analysis of the deposited data

How the results depend on the processing

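The sirtuins and the lists were recomputed under each alternative, except that the filter of over 5 CPM in 3 libraries removed Sirt6. Sirt7 kept its direction and never passed, and Sirt4 kept its call except with library totals alone and with those totals had a log2 fold change of 0.54. With totals alone Sirt5 was 0.25 and no longer called, Sirt2, Sirt3 and Sirt6 turned to −0.12, −0.053 and −0.36, and over all genes 1620 rose and 5592 fell. In the lists totals alone gave 6 rises for mitochondrial substrates, 6 rises and 13 falls for nuclear and cytosolic partners, 8 falls for NAD+ synthesis, 8 for other NAD+ users and 5 for regulators of sirtuins; this scaling moves all genes alike. Sirt1 was no longer called with DESeq2 size factors (−0.82), over 5 CPM in 3 libraries (−0.83) or the GC and length correction (−0.54). That correction gave Sirt3 0.62 (called), Sirt6 −0.34, 8 rises of other NAD+ users and 0 falls of mitochondrial substrates, and joined to the replicate block it gave 0.68 (called), −0.38, 8 and 0, with 5 rises for NAD+ synthesis and Sirt1 called at −0.58. The causes were not tested. An adjusted p under 0.01 ends the calls of Sirt1 (−0.82) and Sirt5 (0.73), leaves 2025 falls over all genes, 10 rises and 0 falls of mitochondrial substrates, 7 rises of partners, 0 falls of other NAD+ users and 4 rises of regulators. With the replicate block alone 4 other NAD+ users fell, and relative to the fit without it that block changed no sirtuin call and no other count by over 1.5 times.

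Leaving out each library in turn gave log2 fold changes of −1.14 to −0.55 for Sirt1, 0.14 to 0.52 for Sirt2, 0.18 to 0.56 for Sirt3, 0.83 to 1.14 for Sirt4, 0.48 to 0.91 for Sirt5, −0.19 to 0.32 for Sirt6 and 0.33 to 0.70 for Sirt7. Rises numbered 12 to 17 and falls 0 to 1 in mitochondrial substrates, 8 to 12 and 5 to 9 in partners, 4 to 7 and 2 to 4 in regulators, 5 and 0 to 3 in other NAD+ users, and 3 and 2 to 3 in NAD+ synthesis. Over all genes 2387 to 3401 rose and 2269 to 3309 fell. The mean log2 difference between Sirt3 to Sirt5 and the others was 0.44 to 0.79 higher at P14. With all libraries but without Sirt1 it was 0.37 higher, and the ages overlapped. The share of Sirt3 to Sirt5 in reads per kilobase was 3.91 to 6.56 percentage points higher with each library left out. Sirt6 had the fewest reads of the family.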

Other observations

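P1 replicate 2 was the lowest of the 3 P1 libraries for Sirt2, Sirt3, Sirt6 and Sirt7 and the highest for Sirt1, and it was also the lowest for Esrra (10.3 CPM, against 40.9 and 34.9 CPM in P1 replicates 1 and 3) and Bloc1s1 (33.6 CPM, against 78.7 and 73.4 CPM). Without it the log2 fold changes of Sirt2, Sirt3 and Sirt7 were 0.14, 0.18 and 0.33, each smaller than with all 6 libraries, while Sirt4 stayed at 0.93. P14 replicate 1 was the highest P14 library for Sirt2, Sirt3, Sirt4 and Sirt5 and the lowest for Sirt1 and Sirt6. Crebbp was also lowest there (20.4 CPM, against 53.8 and 57.2 CPM in P14 replicates 2 and 3). Sod2 was highest there (655 CPM, against 549 and 493 CPM). Of the cardiomyocyte markers, Ttn (1798 CPM, against 8561 and 7209 CPM), Ryr2 (541 CPM, against 1231 and 1274 CPM), Myh6 and Atp2a2 were lowest there. Tnnt2, Tnni3, Actc1, Myl2, Pln and Mb were highest there. P14 replicate 1 thus differed from the other P14 libraries beyond the sirtuins, and the cause was not tested. Leaving out P14 replicate 1 gave log2 fold changes of −0.56 for Sirt1 and 0.48 for Sirt5, and neither was called.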
